A study of Sus scrofa with 42 samples.

Results

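The nuclear noncoding RNA genes of pig early embryos were described in single 1-cell embryos and single blastomeres. They were taken from the gene table by annotation, as genes outside the mitochondrial chromosome whose biotype was neither protein coding nor a pseudogene nor an immunoglobulin or T cell receptor segment. Of 355 such genes, 62 reached an FPKM (fragments per kilobase of gene, scaled to the reads of the cell) of at least 1 in at least 3 of the 42 cells, and these 62 genes are described here. They were 25 of 70 microRNA (miRNA) genes, 14 of 61 genes labelled misc_RNA, 11 of 97 small nuclear RNA (snRNA) genes, 9 of 105 small nucleolar RNA (snoRNA) genes, 2 of 4 ribozymes and 1 of 14 ribosomal RNA genes, while 0 of 4 scaRNA genes passed. The table listed no gene with a long noncoding RNA biotype, and long transcripts such as TUG1 appeared as short conserved segments among the misc_RNA genes.

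Embryos were either fertilized in vitro (IVF) or parthenogenetic (PA). PA embryos come from eggs activated without sperm, here by electric pulses followed by 6-DMAP and cytochalasin B. Oocytes came from slaughterhouse ovaries and were matured in vitro. For each method, 3 cells were collected at the 1-cell stage (19 h), 6 at the 2-cell stage (27 h), 9 at the 4-cell stage (48 h) and 3 at the 8-cell stage (72 h). The cells of each method came from 3, 3, 3 and 1 embryos, respectively, which gives 20 embryos in all, and the embryo was the replicate. Oocyte and early embryo markers (10 of 12 listed were in the table) summed to group medians of 701 to 1228 FPKM at the 1- to 4-cell stages and to 24.4 (IVF) and 79.5 (PA) FPKM at the 8-cell stage. Cumulus cell markers (7 of 12 in the table) summed to at most 30.3 FPKM in a cell, and the 2 of 8 sperm markers in the table had a median of 0 in every group.

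Noncoding RNAs work without being translated. 7SK RNA holds the elongation factor P-TEFb in an inactive particle, SRP RNA is the scaffold of the signal recognition particle that directs secreted proteins to the endoplasmic reticulum, and the U snRNAs form the core of the machinery that splices messenger RNA or, for U7, trims histone messages. Box C/D and H/ACA snoRNAs guide chemical modification of ribosomal RNA and mostly lie in introns of host genes, and mature miRNAs guide silencing of messages that match their seed. In early embryos, the first cleavages run largely on RNA stored in the oocyte, and the embryo's own genome is switched on afterwards, in the pig mainly around the 4-cell stage.

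The sequences below belong to the genes on which the results turn. They were read from the pig genome, build Sscrofa11.1, with RefSeq positions for the mature miRNAs. A pair of 7SK genes was among the 62, and the first 80 bases of each are shown to compare them, with every GATC in capitals, since this motif is repeated in the first hairpin of 7SK where the HEXIM proteins bind. The gene on chr7:46656764-46657094 (plus strand) holds 3 of them and the copy on chr4:24721626-24721924 (minus strand) holds 2. Of 298 listed noncoding genes of at least 80 bases, 27.5% held at least 1 GATC and 1.34% at least 3 in this window.
7SK on chromosome 7: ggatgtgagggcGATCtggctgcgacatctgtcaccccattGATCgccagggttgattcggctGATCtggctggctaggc
7SK copy on chromosome 4: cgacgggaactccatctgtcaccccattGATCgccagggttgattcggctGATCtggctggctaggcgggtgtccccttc

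The U5 gene (chr1:269251106-269251193, minus strand) and the miRNA gene ENSSSCG00000033838 (chr13:140147297-140147385, plus strand) were called as higher at the 8- than at the 4-cell stage in IVF embryos. Capitals in U5 mark the conserved loop that aligns exons during splicing. The 9 letters GCCTTTTAC, searched on the transcribed strand, were held by 3 of 355 listed genes (0.845%), both U5 genes and ENSSSCG00000033838. The match in the latter is a description of letters alone.
U5: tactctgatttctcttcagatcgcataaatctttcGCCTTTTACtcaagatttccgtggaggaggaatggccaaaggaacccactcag
ENSSSCG00000033838: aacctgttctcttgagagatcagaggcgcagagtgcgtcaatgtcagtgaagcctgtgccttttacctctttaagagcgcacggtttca

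The snoRNA snoZ17 (chr12:44959554-44959625, plus strand, in an intron of RPL23A) was the gene called at the 4-cell stage. Capitals mark its box C (TGATGA within the first 20 bases) and box D (CTGA within the last 20), the protein binding motifs of box C/D snoRNAs. Both boxes were found on the transcribed strand of 5 of the 9 snoRNA genes described here (55.6%) and of 36 of the 105 listed (34.3%).
snoZ17: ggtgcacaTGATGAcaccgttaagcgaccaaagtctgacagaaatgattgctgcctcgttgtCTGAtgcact

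For the miRNA genes, the mature sequences are given with the seed (bases 2 to 8) in capitals. None of the mature sequences found for members shared a seed. The values below are those of the annotated miRNA genes of 53 to 138 bases and do not measure the mature arms.
ssc-miR-9818-3p: gAAUUCAAaugauuguuggcc
ssc-miR-9828-3p: gGUUUCAGgccggucgcucga
ssc-miR-7144-5p: aCUUUCCCgggauuuggagcgc
ssc-miR-7144-3p: gCUCCUUGucccgagaccgcga
ssc-miR-708-5p: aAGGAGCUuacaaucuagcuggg
ssc-miR-371-5p: aCUCAAACugugggggcacuuu

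The 2 long noncoding RNAs with the highest segments were TUG1 and ZNFX1-AS1. TUG1 is a nuclear RNA linked to repression of genes by chromatin, and ZNFX1-AS1 is an antisense transcript and host of snoRNAs. The segments TUG1_1 (chr14:47801563-47801706, plus strand, 36.8% GC) and ZNFX1-AS1_2 (chr17:50959327-50959419, plus strand, 50.5% GC) are printed because they fell and reached their highest values, respectively, at the 8-cell stage.
TUG1_1: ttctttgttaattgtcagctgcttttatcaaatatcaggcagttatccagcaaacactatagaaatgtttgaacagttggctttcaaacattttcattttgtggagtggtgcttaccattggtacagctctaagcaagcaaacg
ZNFX1-AS1_2: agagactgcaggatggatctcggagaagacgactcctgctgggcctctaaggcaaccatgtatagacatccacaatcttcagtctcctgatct

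Several libraries stood apart and touch the results below. Of the PA 4-cell cells, PA 4-cell-2-1 nearly repeated PA 2-cell-2-1 (Pearson's r of log2 values 0.999, 19 of the 22 members seen in either were seen in both), and PA 4-cell-1-4 nearly repeated PA 2-cell-1-2 (r = 0.999, 14 of 15), while no other pair of cells exceeded 0.908. In addition, IVF 1-cell-1, IVF 2-cell-1-1, IVF 4-cell-1-1 and IVF 8-cell-1-1 held nearly all 7SK of the series (below). Each of these 4 had the lowest read total behind its FPKM and the fewest genes above 0 of its group, for example 14551927 reads against at least 18965088 and 4367 genes against 6065 to 7071 in the other IVF 4-cell cells. The labels give no sequencing date or batch. Results were therefore also computed without the 2 PA cells, without the 4 IVF libraries, and without all 6.

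Most of the noncoding genes were seen in few cells (the heat map of the 62 genes). The median gene reached 1 FPKM in 4 cells, against 14 for all 8116 genes tested by the same filter, and 61.3% of the noncoding genes did so in 5 cells or fewer, against 20.6%. The top cell held a median of 51.0% of a noncoding gene's summed FPKM, against 26.7%. These genes were short, with a median of 98 bases, so 1 read was worth between 0.0690 and 1.88 FPKM. Behind the 574 values of at least 1 FPKM stood a median of 86 reads, and 87 of them had fewer than 10. At the edge of the rule, 19 of the 62 genes passed in exactly 3 cells, and 43 further noncoding genes missed it with 2 cells.

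**Figure D1:**
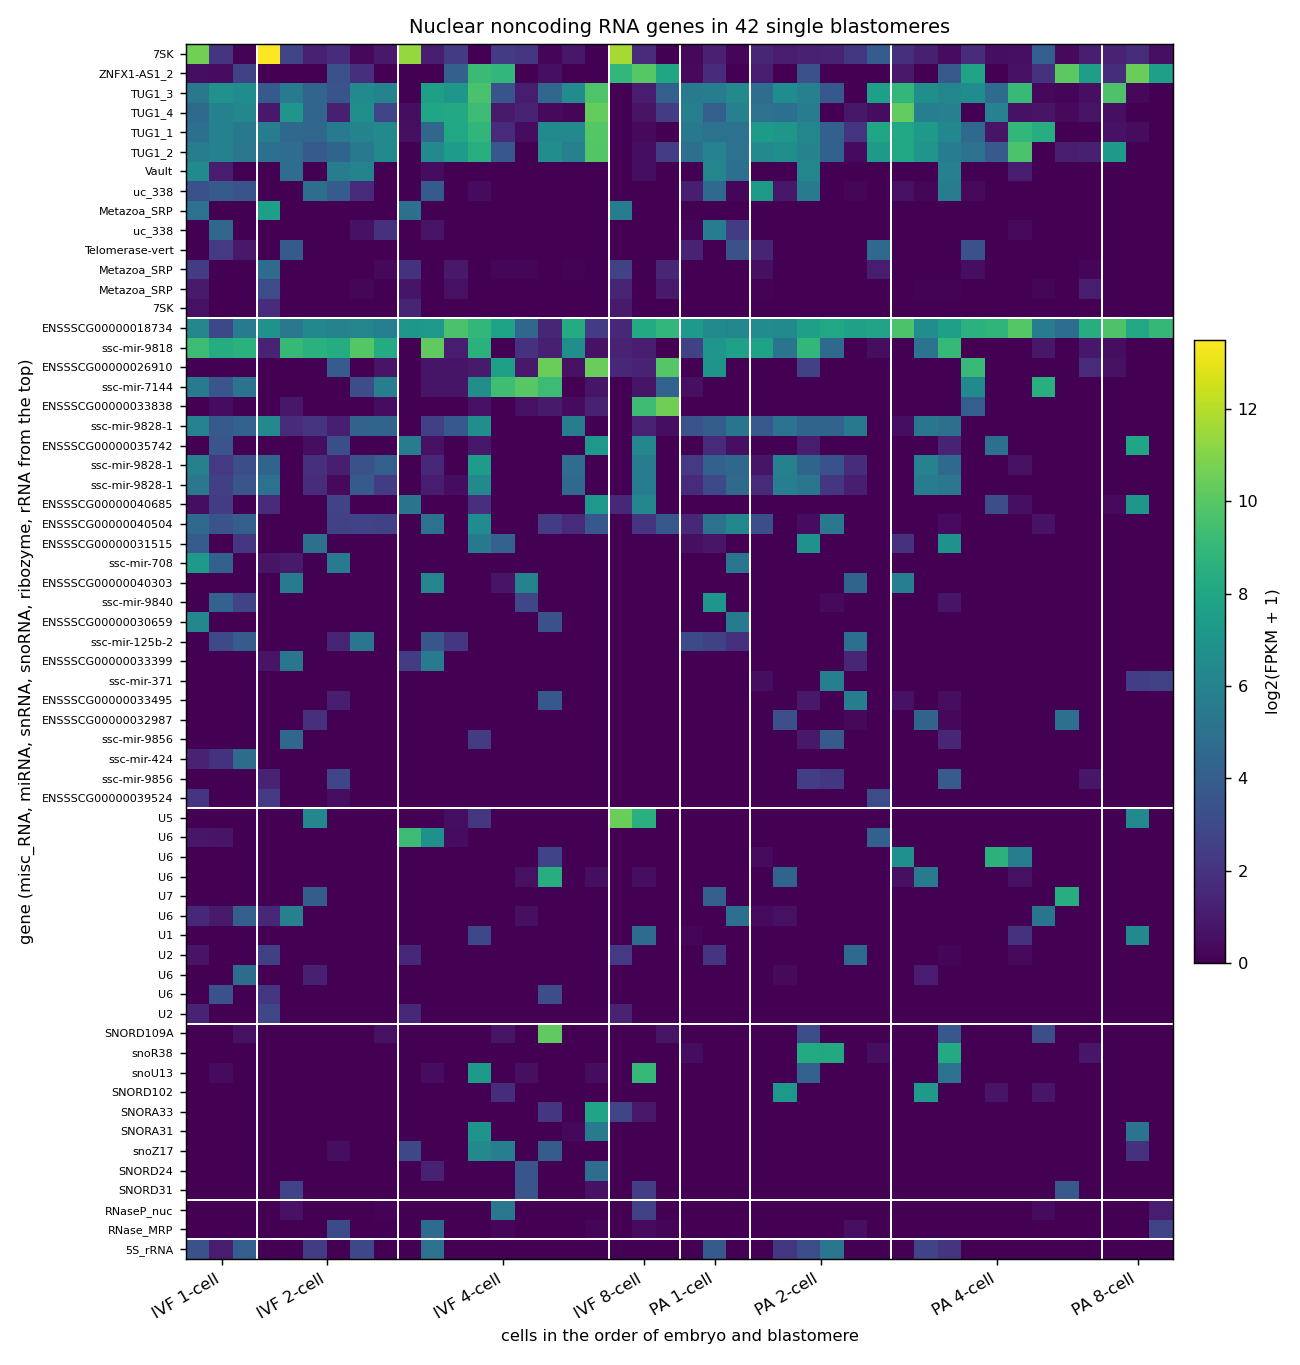
Heat map of log2(FPKM + 1) for the 62 noncoding RNA genes (rows, grouped by biotype) in the 42 cells (columns, grouped by method and stage). Most rows hold few filled cells, whereas ENSSSCG00000018734 is filled in all 42 and the TUG1 segments in 24 to 34.

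By method and stage, fewer noncoding genes were seen per cell after the 1-cell stage, with no further fall in IVF from the 4- to the 8-cell stage. In IVF embryos, 22.7 ± 2.3 genes per cell reached 1 FPKM at the 1-cell stage (SD over embryos, n = 3), 16.8 ± 2.6 at the 2-cell stage, 13.9 ± 2.0 at the 4-cell stage and 14.0 in the lone 8-cell embryo. In PA embryos, the numbers were 17.3 ± 4.5, 13.8 ± 4.0, 9.78 ± 3.0 and 6.67. All tested genes ran the same way: 65.1% of them were seen per IVF 1-cell cell and 23.6% per IVF 8-cell cell, where the noncoding genes went from 36.6% to 22.6%. In PA embryos, all tested genes went from 58.2% to 21.5% and the noncoding genes from 27.96% to 10.8%. These numbers rest on embryos as replicates and were not tested. Cells of the 1-cell stage are whole embryos, whereas later cells are single blastomeres and thus parts of an embryo. The mitochondrial share of a cell's FPKM was 6.07% to 19.2% in 1-cell cells and 14.1% to 63.0% in 4-cell cells. The part of either in the counts was not tested.

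**Figure D2:**
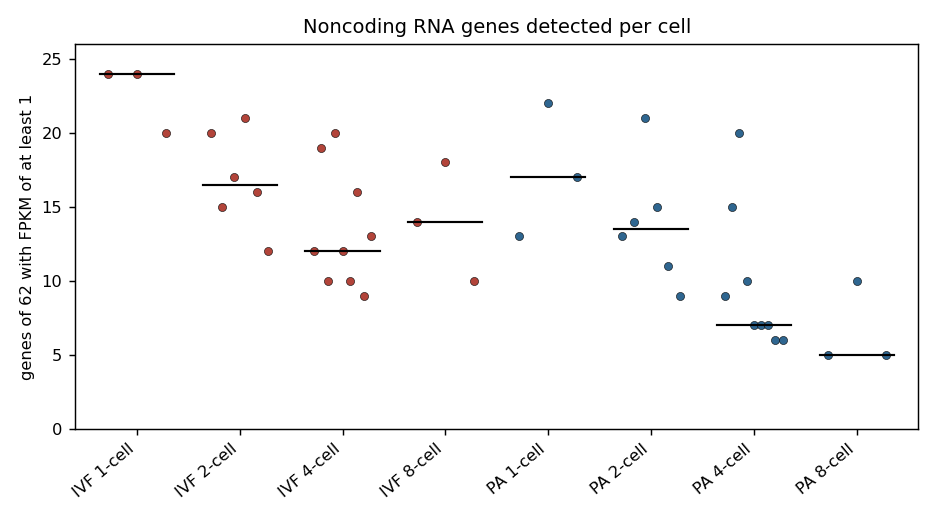
Number of the 62 noncoding genes with at least 1 FPKM in each cell, by stage, with IVF cells in red, PA cells in blue and black lines for group medians over cells. IVF 1-cell cells hold 20 to 24 of the genes, and the PA 8-cell embryo holds 6.67 per cell.

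The biotypes are set side by side by method and stage. MiRNA genes were seen at every stage, with a median of 12 per IVF 1-cell cell and 5 per IVF 8-cell cell, and of 9 and 2 in PA embryos. SnoRNA genes were at or above 1 FPKM in no 1-cell cell of either method, with only 3 cells in each 1-cell group. In at least 1 of the 9 IVF 4-cell cells, 8 of the 9 reached it, with a median of 2 per cell. SNORD24 was seen in the IVF 4-cell group alone, and snoZ17, SNORA31 and SNORA33 mostly there. Such genes passed the filter through that group, so these counts are a description. Of the 9 snoRNA genes, 5 reached 1 FPKM in PA 4-cell cells, with a median of 0 per cell. Among these, snoR38, snoU13 and SNORD102 did so only in the near repeats PA 4-cell-2-1 and PA 4-cell-1-4. Of the 62 genes, 6 were seen in all 8 groups, 53 in both methods, 7 in IVF cells alone and 2 in PA cells alone. None of these counts was made over all tested genes. IVF cells held more of all tested genes at every stage, for example 53.6% per cell against 40.3% in PA at the 2-cell stage. No difference between methods is therefore read from the counts.

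Sister blastomeres often differed. At the 2-cell stage, 53 of 131 combinations of a gene and an embryo (40.5%) had the gene at 1 FPKM in both blastomeres, against 56.3% for all tested genes. At the 4-cell stage, 23 of 140 (16.4%, against 18.4%) had it in every blastomere sequenced, and at the 8-cell stage 5 of 42 (11.9%, against 17.8%). With a minimum of 10 reads instead, the shares were 39.7%, 15.6% and 6.25%.

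7SK had the highest mean of the 62 genes, 458 FPKM, but this level came from 4 cells. It stood at 1610.0 FPKM in IVF 1-cell-1, 11615 in IVF 2-cell-1-1, 2662 in IVF 4-cell-1-1 and 3276 in IVF 8-cell-1-1. The other 38 cells ranged from 0 to 15.7 FPKM, with a median of 1.31. The 4 cells held 99.6% of all 7SK FPKM, and the lowest of them was 103 times the highest of the other cells. In reads, they had 10859 to 73275 on 7SK, whereas the other cells had a median of 14 and at most 153. 7SK took 52.6%, 95.0%, 74.8% and 62.4% of the noncoding FPKM of these 4 cells. In their groups, the other IVF cells overlapped with the PA cells (the plot of 7SK by stage).

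**Figure D3:**
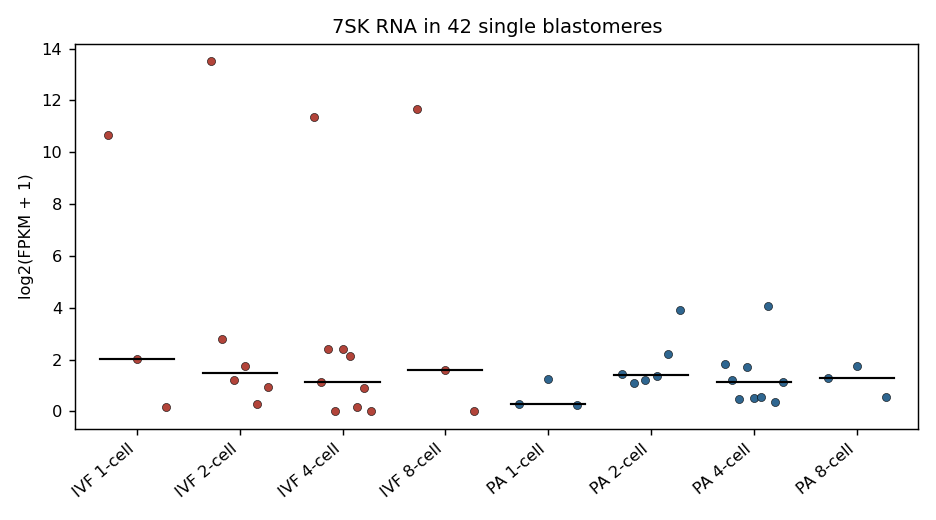
7SK FPKM per cell on a log axis by stage, with IVF cells in red and PA cells in blue. One IVF cell of each stage lies between 1610.0 and 11615 FPKM, and all other cells lie at or under 15.7.

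The same 4 cells held other abundant structural RNAs. Over all 15351 genes, 9 had all 4 cells above the other 38, and 5 of these were among the 62 noncoding genes. The SRP gene ENSSSCG00000032708 had 32.8, 199, 30.3 and 52.1 FPKM in the 4 cells and no read in the other 38. A second SRP gene, ENSSSCG00000031740, had at least 2.98 FPKM in the 4 and at most 1.70 in the others. The 7SK copy on chromosome 4 had 4, 13, 7 and 3 reads in the 4 cells and 0 elsewhere, and the U2 gene ENSSSCG00000036600 had 7, 23, 5 and 3 reads and 0 elsewhere. U2 was not confined to these cells, since the other U2 gene, ENSSSCG00000027405, had 3, 18, 5 and 7 reads in them and up to 155 in the other 38. The ratio of 7SK reads to reads on the 3 SRP genes was 47.1, 55.4, 86.6 and 61.4 in the 4 cells. The other 4 of the 9 genes, ZEB2, MSI2, BHLHE41 and BCL9L, had at most 0.0243 FPKM in the lowest of the 4 cells. These cells were singled out after their values were seen, and the part of their low depth in the result was not tested.

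Copies of these genes share sequence, so reads can be split between them. The 3 SRP genes on chromosome 1 were 98.0% to 100% identical, the 2 U2 genes 97.4%, and the 2 7SK genes 81.0%. The values of single SRP and U2 copies are therefore uncertain. Averaged over the 1-, 2- and 4-cell stages, the difference of 7SK between IVF and PA embryos was 3.01 on the log2(FPKM + 1) scale (SE 1.57, limma adjusted p = 0.383) and -0.0052 (SE 0.51, adjusted p = 0.997) without the 4 libraries.

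TUG1 was represented by 4 segments on chromosome 14 over 3.07 kb, all exonic parts of 1 RefSeq transcript and thus not independent. TUG1_1, TUG1_2, TUG1_3 and TUG1_4 reached 1 FPKM in 31, 34, 34 and 24 of 42 cells. Their sum had group medians of 253, 159, 232 and 2.44 FPKM from the 1- to the 8-cell stage in IVF and of 174, 275, 261 and 0.581 FPKM in PA. Up to the 2-cell stage every cell had at least 1 segment above 1 FPKM. At the 4-cell stage the sum ranged from 0.872 to 4105 FPKM among IVF cells and from 1.49 to 2223 among PA cells. Across cells, log2 values of the segments correlated with r of 0.532 to 0.953, which describes pieces of the same RNA in the same libraries.

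TUG1_1 fell from the 4- to the 8-cell stage in both methods. Its embryo means in IVF were 43.9 ± 14.8 FPKM (SD, n = 3), 49.0 ± 23.8 (n = 3) and 209 ± 103 (n = 3), and 0.0877 in the 8-cell embryo. In PA they were 35.9 ± 5.9, 108 ± 56 and 158 ± 50 FPKM (n = 3 each), and 0.320 in the 8-cell embryo. The 8-cell embryo lay below every 4-cell embryo in each method. The 114 FPKM of PA 4-cell embryo 3 came from PA 4-cell-3-1 alone, at 342 FPKM against 0 in its sisters. The change was -7.44 on the log2(FPKM + 1) scale in IVF (SE 0.84, limma adjusted p = 1.07e-05) and -6.86 in PA (SE 0.84, adjusted p = 3.93e-05). Fitted on the compared groups alone, neither call held (adjusted p = 0.155 and 0.0579). TUG1_2 changed by -5.96 in IVF (SE 1.71, adjusted p = 0.0396), a call that was lost without the 2 PA cells (adjusted p = 0.0589), without the 4 IVF libraries (0.0631) and without IVF 4-cell embryo 2 (0.0626) or 3 (0.0912). TUG1_4 changed by -6.65 in IVF (adjusted p = 0.0651) and -4.73 in PA (adjusted p = 0.200), neither of which passed.

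The segments parted in several cells. PA 4-cell-3-1 had 342 FPKM of TUG1_1 (892 reads), but 0 of TUG1_2, 0.226 of TUG1_3 and 0.635 of TUG1_4. PA 4-cell-2-4 had 489 FPKM of TUG1_1 and 0.573 of TUG1_4. PA 8-cell-1-1 had 863 FPKM of TUG1_3 (7367 reads) and 162 FPKM of TUG1_2 (494 reads), but 0.595 FPKM of TUG1_1 and 0.4925 of TUG1_4 (3 reads each). In PA embryos the change from the 4- to the 8-cell stage was 2.79 for TUG1_3 (adjusted p = 0.477). The highest value of every segment was in IVF 4-cell-3-4, from 870.4 FPKM (TUG1_3) to 1282 FPKM (TUG1_4).

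**Figure D4:**
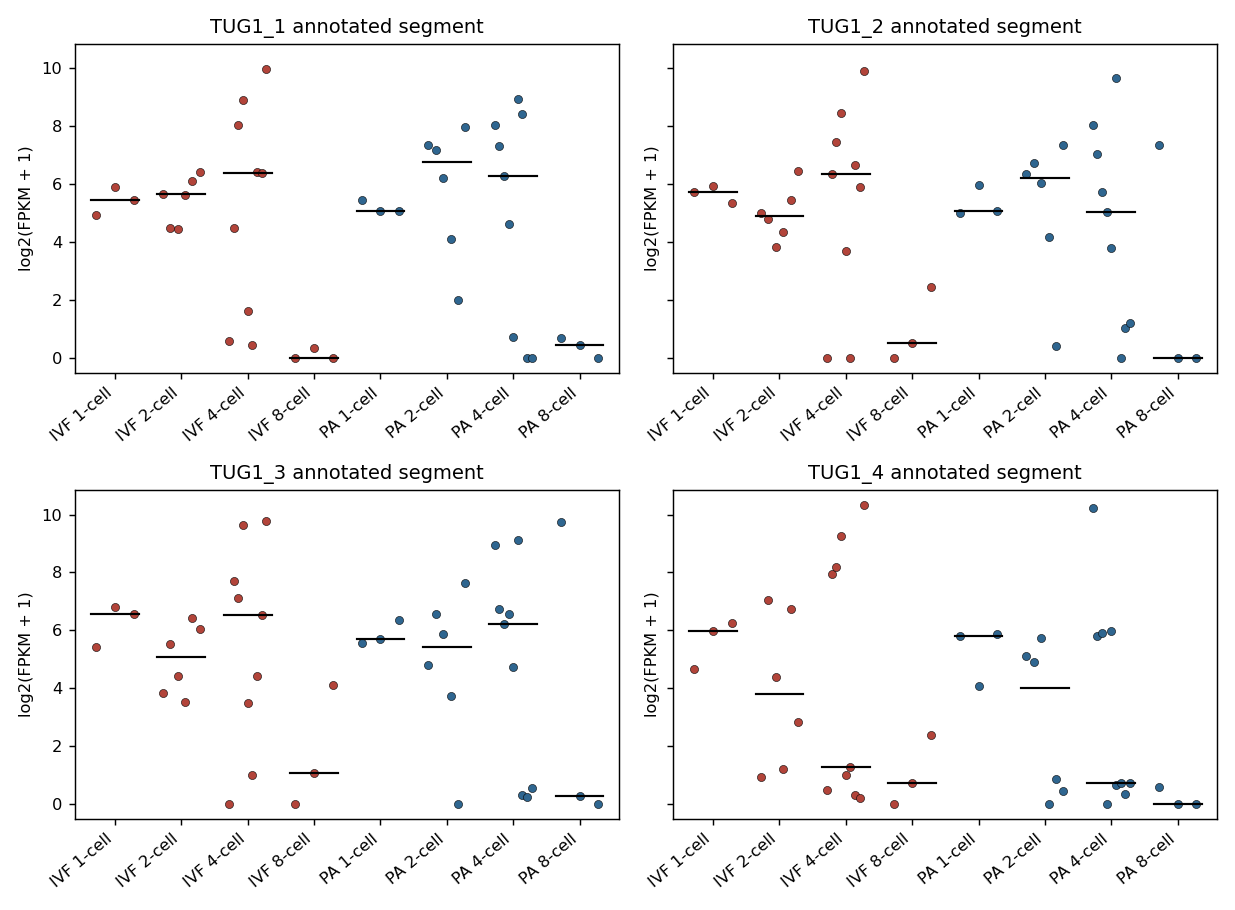
FPKM per cell of the 4 TUG1 segments on a log axis by stage, with IVF cells in red, PA cells in blue and black lines for group medians over cells. TUG1_1 is below 1 FPKM in all 6 8-cell cells, whereas TUG1_3 reaches 863 FPKM in PA 8-cell-1-1.

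ZNFX1-AS1_2 ran the other way but was not called. Its embryo means were 1.95 ± 2.69, 1.98 ± 2.36 and 183 ± 312 FPKM (SD, n = 3 each) in IVF 1-, 2- and 4-cell embryos and 591 in the 8-cell embryo, and 0.852 ± 1.25, 1.69 ± 2.47, 162 ± 230 and 522 FPKM in PA. Among 8-cell cells, it stood at 491, 1037 and 246 FPKM in IVF and at 2.46, 1366 and 198 FPKM in PA. Before the 4-cell stage no cell exceeded 9.19 FPKM, and the 4-cell cells ranged from 0 to 598 FPKM in IVF and from 0 to 1081 in PA. The change from the 4- to the 8-cell stage was 5.23 on the log2(FPKM + 1) scale in IVF (SE 2.60, limma adjusted p = 0.282) and 3.95 in PA (adjusted p = 0.469), within the spread between embryos. The segment lies on an exon of the RefSeq noncoding gene LOC100627868, and another noncoding gene, LOC106506050, runs over it on the other strand.

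**Figure D5:**
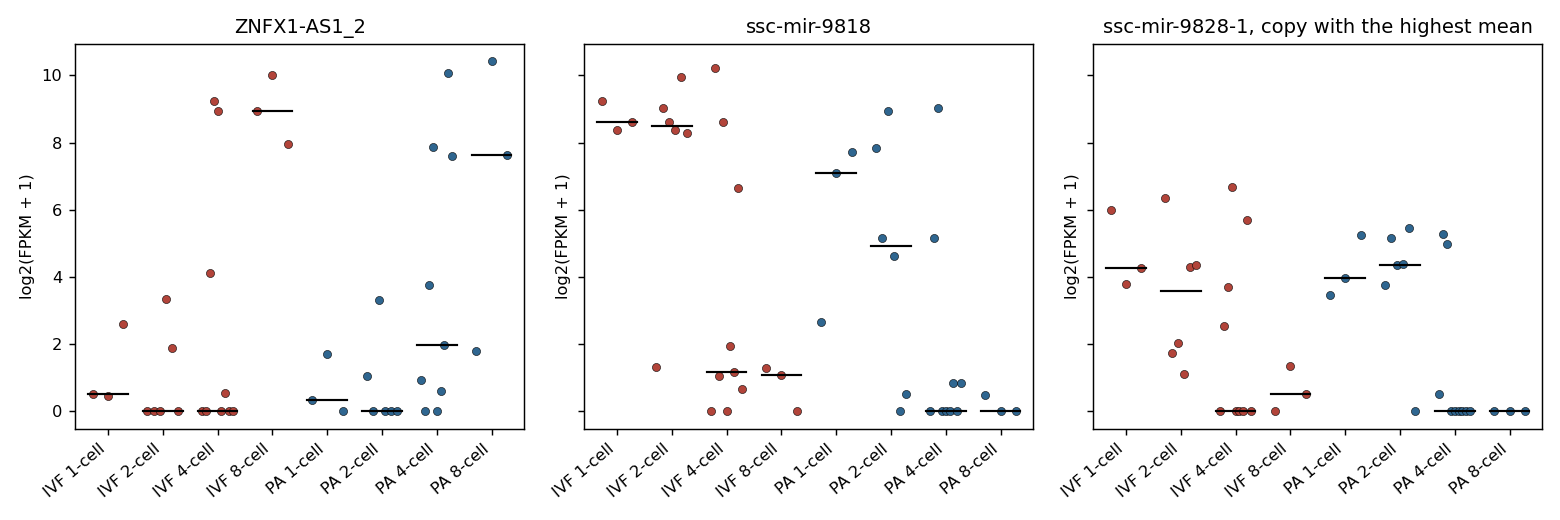
FPKM per cell on a log axis by stage for ZNFX1-AS1_2, ssc-mir-9818 and the ssc-mir-9828-1 copy ENSSSCG00000033170, with IVF cells in red, PA cells in blue and black lines for group medians over cells. ZNFX1-AS1_2 is at or under 9.19 FPKM up to the 2-cell stage and reaches 1366 at the 8-cell stage, while ssc-mir-9818 is at most 1.45 FPKM in the 8-cell cells.

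Among miRNA genes, ENSSSCG00000018734 was the one seen in all 42 cells, from 1.72 to 995 FPKM. It lies on chr1:127766052-127766152 over a coding exon of SERF2, on the other strand. In all, 31 of the 62 genes overlapped a RefSeq protein-coding gene, 11 another RefSeq gene alone and 20 none. Of the miRNA genes, 8 lay over a coding exon on the other strand. Their log2 values followed the overlapping gene's with a median r of 0.614 over the 7 in which it was in the table. The r ranged from 0.354 for ENSSSCG00000031515 with KBTBD13 to 0.991 for ENSSSCG00000032987 with LOC100622387. ENSSSCG00000032987 reached 1 FPKM in 4 cells, among them the near repeats PA 2-cell-1-2 and PA 4-cell-1-4. ssc-mir-9840, with r of 0.954 to TBC1D1, also reached it in 4 cells. The 9 same-strand intronic genes with a host in the table had a median r of 0.153, for example 0.401 for SNORA31 with TPT1. The strand of the libraries is not given in the sources used here, so reads of an exon and of a miRNA gene opposite to it cannot be told apart.

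ssc-mir-9818 was high early. In IVF 1-cell cells it had 605, 331 and 391 FPKM, and in IVF 2-cell cells 314 to 989 FPKM except for 1.52 in IVF 2-cell-1-1, 1 of the 4 libraries high in 7SK. In PA it had 5.37, 137 and 209 FPKM in 1-cell cells and 0 to 487 in 2-cell cells. The methods did not overlap at the 1-cell stage and did at the 2-cell stage. At the 4-cell stage, 3 IVF cells had 99.7, 391 and 1183 FPKM and the other 6 at most 2.84, while the 2 PA cells above 1 FPKM, at 34.8 and 527, were the ones that nearly repeated 2-cell cells. Over the 3 stages, IVF was higher by 3.16 on the log2(FPKM + 1) scale (SE 1.00), which did not pass (limma adjusted p = 0.183), and by 4.41 (SE 0.89, adjusted p = 0.0317) without the 2 PA cells. The gene lies over a coding exon of LOC100523684 on the other strand, with r = 0.587 between them.

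The ssc-mir-9828-1 locus held 3 identical copies of 98 bases within 6.28 kb (chr12:58566073-58572351). Reads that lie within these bases alone cannot be assigned to a copy. The values given to the copies nevertheless differed, with 144, 8 and 4 reads in PA 2-cell-3-1 for ENSSSCG00000033170, ENSSSCG00000034672 and ENSSSCG00000036258. How reads were assigned to the copies is not given. The sum of the 3 copies had medians of 37.3, 23.8, 0 and 0.433 FPKM from the 1- to the 8-cell stage in IVF and of 38.6, 39.5, 0 and 0 FPKM in PA. At the PA 4-cell stage, 7 of 9 cells had none at 1 FPKM, and the other 2 were the near repeats. The copy ENSSSCG00000033170 changed by -2.01 from PA 2- to 4-cell embryos (SE 1.09, limma adjusted p = 0.544) and by -4.32 (SE 0.94, adjusted p = 0.00791) without the 2 PA cells, where the other 2 copies were not called (-3.33 and -3.26, adjusted p = 0.118 and 0.132).

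Other miRNA genes were high in single cells. ENSSSCG00000026910 had 1418 FPKM in IVF 4-cell-3-2. It lies on a noncoding exon or UTR of PURB on the same strand, so its reads cannot be told apart from those of PURB. The gene ssc-mir-7144, over a coding exon of ARGLU1 on the other strand, had 1002 FPKM in IVF 4-cell-3-1. ssc-mir-424 was seen in the 3 IVF 1-cell cells alone, at 1.52, 2.95 and 26.3 FPKM (3, 7 and 58 reads), and was at 0 in the other 39 cells. It passed the filter on low values only through the group where it was high, so these values are a description. ssc-mir-371 was seen in PA cells alone, at 55.4 FPKM in PA 2-cell-2-2 and at 4.72 and 5.33 FPKM in 2 PA 8-cell cells.

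Across the whole fit, few noncoding genes were called by limma (adjusted p below 0.05 and at least a doubling of FPKM + 1). From the 1- to the 2-cell stage, 0 of 62 were called in IVF, where 0% of all genes tested were called and 216 of them had an unadjusted p below 0.05, among them 2 noncoding genes. In PA the same step gave 0 of 62 beside 0.0986% of all genes, with 394 genes, 4 of them noncoding, at an unadjusted p below 0.05. From the 2- to the 4-cell stage, 1 noncoding gene was called in IVF beside 1.11% of all genes, and 0 in PA beside 0.394%. In PA, 873 genes, 3 of them noncoding, had an unadjusted p below 0.05. From the 4- to the 8-cell stage, 5 were called in IVF (3 higher, 2 lower) beside 6.97% of all genes, and 4 in PA (3 higher, 1 lower) beside 9.99%. These shares of the 62 lay near the background or rest on single genes. The median SE of a difference was 1.099 for noncoding genes and 0.816 for all genes between groups of 3 embryos, and 1.55 and 1.15 where an 8-cell group entered.

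Of the snRNA genes, U5 and U1 were called at the 8-cell stage. The U1 gene lies over a noncoding exon or UTR of SERINC5 on the other strand. With the strand of the libraries not given, its reads cannot be told apart from those of SERINC5. The U5 gene was at 1404, 379 and 0 FPKM in the IVF 8-cell cells (1237, 881 and 0 reads) and at most 3.60 FPKM in the IVF 4-cell cells, a change of 8.66 (SE 1.39, limma adjusted p = 0.000462). The cell at 1404 FPKM is 1 of the 4 libraries high in 7SK, and without these the change was 6.99 (SE 1.44, adjusted p = 0.0048). In PA it was at 86.7 FPKM (145 reads) in 1 of 3 8-cell cells and listed at 0 in all 4-cell cells (adjusted p = 0.0286). The U1 gene was seen in 1 IVF 8-cell cell at 26.1 FPKM (change 2.58, SE 0.70, adjusted p = 0.0275, and 0.0571 and 0.0564 without IVF 4-cell embryo 1 or 3) and in 1 PA 8-cell cell at 82.7 FPKM (change 4.57, SE 0.70, adjusted p = 0.000296). All 3 rises called in PA came from the cell PA 8-cell-1-2, since the third, ENSSSCG00000040685 in an intron of the RNA helicase gene DDX5, had 142 FPKM (272 reads) there and at most 0.283 in its 2 sisters (change 5.04, SE 1.32, adjusted p = 0.0182). Each 8-cell group held 1 embryo, which was assumed to vary like the others. Outside the 8-cell stage, U5 reached 1 FPKM in 1 IVF 2-cell and 1 IVF 4-cell cell. U1 did so in 1 IVF 4-cell and 1 PA 4-cell cell. Either 8-cell group could be left out, but without both neither gene would have passed the filter. The p-values of U5 and U1 therefore lend their rises no support. Fitted on the compared groups alone, none of the 5 calls in IVF held, and in PA those of U5 and ENSSSCG00000040685 (adjusted p = 0.0616 and 0.181), U1 (0.112) and TUG1_1 did not hold either.

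The other snRNA genes were high in few cells. The 6 U6 genes, of 72 listed, were 57.3% to 87.6% identical to one another, and the highest was at 616 FPKM in IVF 4-cell-1-1. The U6 gene ENSSSCG00000020211, in an intron of PCBP2, had 108, 414 and 49.4 FPKM in 3 PA 4-cell cells and at most 0.326 in PA 2-cell cells. With 1 cell at 1 FPKM outside the PA 4-cell group, it passed the filter through that group, and the values are a description. The U7 gene had 337 FPKM in PA 4-cell-3-3 and was otherwise at most 16.0.

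The miRNA gene ENSSSCG00000033838, in an intron of GSK3B on the same strand, had 0, 608 and 1513 FPKM in the IVF 8-cell cells (0, 1428 and 3172 reads). It was at most 1.33 FPKM in the IVF 4-cell cells, at 15.5 in 1 PA 4-cell cell and at 0 in all PA 8-cell cells. The change in IVF was 9.06 (SE 0.79, limma adjusted p = 1.37e-06), and the interaction of method with the step was 9.82 (SE 1.11, adjusted p = 7.55e-05, and 0.0990 in a fit of the compared groups alone). Both values rest on 1 embryo in each 8-cell group, whose spread was borrowed from the other groups. Of the 4 cells in which the gene reached 1 FPKM, 2 were IVF 8-cell cells, without which it would not have passed the filter, so its p-values lend the difference no support. In the interaction of method with the step from the 4- to the 8-cell stage, 2 noncoding genes were called beside 2.86% of all genes.

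The second gene of that interaction was SNORA31, an H/ACA snoRNA in an intron of TPT1 (adjusted p = 0.0460, and 0.0567 without the 4 IVF libraries). Its call was also lost without IVF 4-cell embryo 3 or any 1 of the PA 4-cell embryos (adjusted p = 0.0616 to 0.0669). It had 128, 0.221 and 48.3 FPKM in 3 of 9 IVF 4-cell cells, 34.1 FPKM in 1 PA 8-cell cell and 0 in every other cell. It too would not have passed the filter without the IVF 4-cell group. The interactions of method with the earlier steps gave 0 of 62, beside 0% of all genes each. For the step from the 1- to the 2-cell stage, 227 genes, 1 of them noncoding, had an unadjusted p below 0.05, and for the step from the 2- to the 4-cell stage 434, of which 4 were noncoding.

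snoZ17 was the noncoding gene called at the 4-cell stage. It had 6.68, 79.8, 55.0 and 14.5 FPKM in 4 of the 9 IVF 4-cell cells, which came from all 3 embryos, with 7, 109, 92 and 24 reads. It was at most 0.396 FPKM in IVF 2-cell cells and listed at 0 in all PA cells but PA 8-cell-1-2 (2.92 FPKM). The change from IVF 2- to 4-cell embryos was 3.24 (SE 0.73, limma adjusted p = 0.0356), and IVF differed from PA at the 4-cell stage (adjusted p = 0.0439), where 1 noncoding gene was called beside 0.554% of all genes. With 1 cell at 1 FPKM outside the IVF 4-cell group, the gene passed the filter through the group tested, so these p-values lend the difference no support. Neither call held without the 4 IVF libraries, which take out the cell with 6.68 FPKM (adjusted p = 0.156 and 0.185), and each missed the threshold when 1 of the IVF 2-cell embryos (adjusted p = 0.0853 to 0.142) or 1 of the PA 4-cell embryos (0.0599 to 0.0829), respectively, was left out. IVF and PA differed in 0 of 62 genes at the 1-cell stage, beside 0.0493% of all genes. There, 332 genes, 3 of them noncoding, had an unadjusted p below 0.05. At the 2-cell stage they differed in 0 of 62, beside 0% of all genes. There, 441 genes, 1 of them noncoding, had an unadjusted p below 0.05. Averaged over the 3 stages, 0 of 62 were called beside 0.037% of all genes. An unadjusted p below 0.05 was found for 8 of the 62, and for 1182 (14.6%) of all 8116 genes.

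The remaining snoRNA genes were carried by few cells. SNORD109A had 1165 FPKM (1797 reads) in IVF 4-cell-3-2 and at most 11.5 elsewhere. snoU13, a C/D snoRNA, had 526 FPKM in IVF 8-cell-1-2 and 162 in IVF 4-cell-2-2. snoR38 was at 306 and 291 FPKM in both sisters of PA 2-cell embryo 2 and at 307 in PA 4-cell-2-1, which nearly repeats the first of them. SNORD102 was at 144 FPKM in PA 2-cell-1-2 and 155 in its near repeat, so each of these genes has 1 independent source fewer than its count of cells. SNORA33, in an intron of RPS12, had 239 FPKM in IVF 4-cell-3-4 and at most 6.19 elsewhere.

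The catalytic and structural RNAs were lower. RNaseP_nuc, the RNA of the enzyme that trims transfer RNA precursors, had 39.7 FPKM in IVF 4-cell-2-3 and RNase_MRP, which processes ribosomal RNA precursors, had 26.6 FPKM in IVF 4-cell-1-2. Both were at 0 in all 1-cell cells. The vault RNA gene was seen in 10 cells with up to 84.7 FPKM, of which none was at the 8-cell stage. Telomerase RNA (Telomerase-vert), the template for telomere repeats, was seen in 7 cells with up to 23.3 FPKM, and the 5S_rRNA gene in 12 cells with up to 38.7 FPKM, again none of them at the 8-cell stage. The uc_338 gene ENSSSCG00000032697 was seen in 12 cells, with up to 161 FPKM. Telomerase-vert lies on a noncoding exon or UTR of ANKRD6 on the same strand. RNase_MRP lies on an exon of the noncoding gene LOC106509199 on the same strand. Its log2 values followed those of the overlapping protein-coding gene ENSSSCG00000005313 with r = 0.985. Reads of Telomerase-vert and RNase_MRP cannot be told apart from those of the genes they overlap.

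Genes for the protein partners of these RNAs were counted from lists over the same fit. At the step from the 4- to the 8-cell stage, 6.97% of all genes were called in IVF and 9.99% in PA, and nothing is read from the lists' counts beside these. Of 16 tested genes of RNA polymerase III and its factors, GTF3C2 fell from the 4- to the 8-cell stage in IVF (-4.36, limma adjusted p = 0.0128) and TROVE2, the Ro protein that binds Y RNA, rose in PA (2.48, adjusted p = 0.00986). Of 24 genes of snRNA transcription and end processing, INTS10 fell in IVF (-3.61, adjusted p = 0.0321), a call lost without the 2 PA cells (adjusted p = 0.211) and without IVF 4-cell embryo 1 (adjusted p = 0.0627). The median change of all genes at this step was -0.38 in IVF and -0.15 in PA.

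Partners of SRP RNA, snoRNAs and the ribozymes had calls in both methods. Of 6 tested SRP proteins, SRP72 rose from the 4- to the 8-cell stage in IVF (3.93, SE 0.53, limma adjusted p = 7.79e-05) and in PA (4.33, SE 0.53, adjusted p = 3.98e-05). Of 14 snoRNP proteins, the H/ACA protein GAR1 rose at that step in IVF (6.76, SE 1.505, adjusted p = 0.00756) and in PA (4.96, SE 1.505, adjusted p = 0.0412, and 0.0913 without PA 4-cell embryo 3), and RUVBL2, an assembly factor, rose in PA (2.23, adjusted p = 0.0052). Of 6 proteins of RNase MRP and RNase P, RPP40 rose in IVF from the 2- to the 4-cell stage, where 1.11% of all genes were called (2.05, SE 0.41, adjusted p = 0.0186, and 0.0666 to 0.0898 without any 1 of the IVF 2-cell embryos) and in PA from the 4- to the 8-cell stage (2.41, SE 0.58, adjusted p = 0.0106). Its step from the 4- to the 8-cell stage differed between the methods (interaction -4.15, SE 0.82, adjusted p = 0.00997), as did that of RUVBL2 (-3.07, adjusted p = 0.0202), beside 2.86% of all genes. Fitted on the compared groups alone, of all these calls only that of RUVBL2 in PA held. SRP72 had means of 14.9 (IVF) and 19.4 (PA) FPKM at the 8-cell stage and at most 0.424 in the earlier groups. It passed the filter through the 8-cell groups, so its p-values lend the rise no support. None of 12 tested genes of miRNA processing was called in any of the 13 comparisons, in which 0% to 9.99% of all genes were called and the median SE of all genes was 0.471 to 1.63.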

How the data were processed

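Single blastomeres of pig IVF and PA embryos were measured, 42 cells of 20 embryos in 8 groups. The authors amplified cDNA of transcripts with or without polyA tails by Ansuper-seq, sequenced it on a HiSeq X-Ten, mapped reads to Sscrofa11.1 with Hisat2, assembled with StringTie, counted with HTSeq and deposited FPKM for 15351 genes. The extraction protocol in the labels instead describes Trizol and total RNA libraries of oocytes. Program versions, annotation release, strandedness and molecular identifiers are not given in the sources used here.

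Reads behind each FPKM were recovered from the gene's length and a read total per cell, which was 10012847 to 40508669 (median 26682162.5). Of 1148 values under 1000 reads checked, 1148 came out whole within 0.01. Amplified reads are not independent molecules, so precision was taken from the spread between embryos. No count test was run, since the deposited unit is FPKM.

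FPKM were averaged over the cells of an embryo. After adding 1 and taking log2, the 8116 genes that reached 1 FPKM in 3 or more cells were fitted in all 8 groups together with limma 3.58.1 (R 4.3.3) and a mean-variance trend. Fold changes on this scale understate the change of genes near 0 and depend on the 1 added. Genes with a Benjamini-Hochberg adjusted p below 0.05 and a log2 change of at least 1 were called, and adjustment ran over all tested genes. The fit was tested on simulated data. Nothing says that embryos of a group came from separate pools of oocytes, so p-values measure the spread between these embryos.

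Positions and sequences came from RefSeq for Sscrofa11.1, with which the table's positions fit on all 20 chromosomes compared (Biopython 1.88). Tables used Python 3.11.15 with pandas 2.3.3, numpy 2.4.6 and scipy 1.17.1. Figures used matplotlib 3.10.9.

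Genes named in the text were the highest gene of each RNA family, the 3 highest and the 3 seen in most cells of each biotype, the genes called in each comparison or, with none, the one with the smallest p, the 5 highest values in a single cell, and called genes of the partner lists. One partner gene is not reported here. Others named were chosen after their values were seen. The genes described and the lists were chosen with earlier results of these data known. Alternatives were pseudocounts of 0.1 and 5, no filter or FPKM of at least 5, scaling to the nuclear total or by the median ratio, the mean of log2 values, the compared groups alone, limma's robust option, the replicate block, leaving out each embryo, at least 10 reads for detection, and, added after seeing the data, leaving out the 2, 4 or 6 cells that stood apart.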

Additional observations from a re-analysis of the deposited data

Results flagged for a closer look

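Within groups of 4 to 10 cells, the highest or lowest cell was compared with the rest by Dixon's ratio. This was done for 7SK, the summed FPKM of the 62 noncoding genes and the number of them seen. In 12 checks, 5 values were far from the others. Chance gives about 1 in 20 for independent values, but sister cells of an embryo are not independent. The checks of 7SK and of the summed FPKM also overlap, so the 5 values are a description. 7SK was 11615 FPKM in IVF 2-cell-1-1 and 2662 FPKM in IVF 4-cell-1-1, far above the other cells of their groups. At a far lower level, 7SK was also far from the rest in PA 2-cell-3-2 (14.0 FPKM) and PA 4-cell-3-1 (15.7 FPKM). The summed FPKM was 12224 in IVF 2-cell-1-1, of which 95.0% was 7SK.

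The step from the 4- to the 8-cell stage differed between IVF and PA for 2 noncoding genes, by limma's interaction over all genes. ENSSSCG00000033838 differed by 9.82 on the log2(FPKM + 1) scale and SNORA31 by -6.88. SNORA31 was listed at 0 in all PA 4-cell and IVF 8-cell cells, so its fitted value depends on the 1 added, and both values rest on 1 embryo at the 8-cell stage of each method. Neither gene would have passed the filter on low values without the group in which it was seen in most cells.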

How the results depend on the processing

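Counts of called noncoding genes were recomputed under each alternative, and 203 of 265 alternatives, those that leave out an embryo included, stayed within 1.5 times of the count reported and on the same side of 0. Of 220 alternatives for single called genes, 162 kept the call, 58 lost it and 0 changed sign. For called partner genes, 183 of 233 kept the call, 50 lost it and 0 changed sign. With a pseudocount of 0.1, 1 gene was called in IVF 2- against 1-cell and 1 in IVF against PA at 1-cell. With a pseudocount of 5 or no filter, 0 were called in IVF 4- against 2-cell and 0 in IVF against PA at 4-cell. The interaction with the 4- to 8-cell step gave 1 gene with no filter, with FPKM of at least 5, with the nuclear total, with the mean of log2 values and with the compared groups alone. Scaling by the median ratio, which moved the median of all genes by -0.38 to 0.50, gave 9 in IVF 8- against 4-cell (7 higher, 2 lower, against 3 and 2), 3 in PA 4- against 2-cell, 8 in PA 8- against 4-cell (7 higher, 1 lower, against 3 and 1), 4 in IVF against PA at 4-cell (2 and 2, against 1 and 0), 1 averaged over stages and 6 in the last interaction. The mean of log2 values gave 0 in IVF 4- against 2-cell, 3 in IVF 8- against 4-cell, 1 in PA 4- against 2-cell, 2 in PA 8- against 4-cell, 1 at 1-cell and 0 at 4-cell between methods. The compared groups alone gave 0 in IVF 4- against 2-cell, 0 in IVF 8- against 4-cell, 2 in PA 8- against 4-cell (RNase_MRP and ssc-mir-371, neither of them called with all groups) and 0 at 4-cell between methods, with fewer embryos to estimate the spread.

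Without the 2 PA cells, 2 were called in PA 4- against 2-cell, 5 in IVF against PA at 4-cell and 1 averaged over stages. Without the 4 IVF libraries, 1 was called in IVF 2- against 1-cell, 0 in IVF 4- against 2-cell, 1 at 1-cell and 0 at 4-cell between methods and 1 in the last interaction. Without all 6, the counts were 1 in IVF 2- against 1-cell, 0 in IVF 4- against 2-cell, 2 in PA 4- against 2-cell, 1 at 1-cell, 2 at 4-cell, 1 averaged over stages and 1 in the last interaction. With at least 10 reads in place of 1 FPKM, 11.4 noncoding genes per cell were seen in IVF 4-cell and 8.67 in IVF 8-cell embryos. Leaving out each embryo gave 0 to 1 calls in IVF 2- against 1-cell, 0 to 5 in IVF 4- against 2-cell, 5 to 8 in IVF 8- against 4-cell, 0 to 0 in PA 2- against 1-cell, 0 to 1 in PA 4- against 2-cell, 4 to 6 in PA 8- against 4-cell, 0 to 1, 0 to 0 and 0 to 2 between methods at 1-, 2- and 4-cell, 0 to 2 averaged over stages, and 0 to 0, 0 to 1 and 1 to 4 in the 3 interactions. The 5 came without IVF 4-cell embryo 1, and the 8 and the 4 without IVF 4-cell embryo 2. Except where fewer embryos entered, the cause was not tested.

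Embryo numbers are shared by the groups in the labels, but nothing links them, and in 0 of 15 pairs of groups did all same-numbered embryos correlate above 0.1. With the replicate block, 13 of 13 counts stayed within 1.5 times, with 7 in IVF 8- against 4-cell (U5, ENSSSCG00000033838, U1, TUG1_1 and TUG1_2, with snoU13 and TUG1_4 added) and 6 in PA 8- against 4-cell. In these short genes 1 read was worth up to 1.88 FPKM, and 15 of the 574 values of at least 1 FPKM rested on 1 or 2 reads. A noncoding gene at 0 in a cell was not detected in that library, which does not show that its RNA was absent. The part of depth in this was not tested.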
